A study of Mus musculus with 15 samples.

Results

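Total ribosome-protected fragments (RPFs) of mouse embryonic stem cells carrying a FLAG tag on Rps27l were compared with those of untagged wild-type (WT) cells, 3 clones against 3, so 6 of the 15 libraries in the series. All clones came from E14Tg2a.4, a male mouse embryonic stem cell line kept on gelatin with serum and LIF. The Rps27l-FLAG clones, which the labels call eS27L-FLAG, carried a 3xFLAG peptide behind a 2xGGGS linker on both copies of the endogenous gene, inserted by CRISPR just before the stop codon and isolated from single transfected cells after puromycin selection. They are 4a2, 4a3 and 4b7. The WT clones 5a1, 5a2 and 5a3 were a control of matched passage without a tag. All cells, tagged and untagged, were treated with cycloheximide before lysis and their lysates were digested with RNase A and RNase T1. The libraries fall into 3 batches, named sequencing batches in the study's annotation and also pooled by replicate during library preparation, each holding 1 clone of every line: 4a2 with 5a1 in batch 1, 4a3 with 5a2 in batch 2, and 4b7 with 5a3 in batch 3. The comparison asks which mRNAs carry more or fewer ribosomes in the line used for the Rps27l pull-down before any pull-down is made. The 6 compared libraries held 6378854 to 8064166 counts. The 6 other libraries of tagged lines that enter below are 3 total libraries of Rps27-FLAG clones (2b12, 2c3 and 2c4, 1 per batch, labelled eS27-FLAG), which share the fit, and the anti-FLAG immunoprecipitation (IP) libraries of the same 3 Rps27l-FLAG clones.

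Rps27l (eS27L) is a paralog of Rps27 (eS27), a protein of the small ribosomal subunit, and either can be built into a ribosome. Ribosome profiling sequences the short mRNA stretch that a ribosome shields from nuclease. The RPF count of a coding sequence therefore follows both the abundance of its mRNA and the density of ribosomes on it, and a change in RPFs alone does not separate these. Embryonic stem cells in serum and LIF hold a mixture of states that differ in pluripotency factors, in DNA methylation and in low expression of endoderm genes, and a clone grown from 1 cell can carry differences unrelated to its edit. In such bulk libraries fewer cells of a type and less RNA per cell cannot be told apart.

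The edit lies at the end of Rps27l on mouse chromosome 9 (GRCm38, plus strand, gene chr9:66946086-66949512). The sequences below are shown because they place the tag: the coding part of exon 4, the last exon, with its stop codon in capitals, and both guide target sites with their PAM in capitals. The first is read from the genome at chr9:66949329-66949357, the second is the site of guide 1 on the minus strand at chr9:66949323-66949342, which crosses the boundary of the last intron and exon 4, and the third is that of guide 2 on the plus strand at chr9:66949353-66949372, which covers the stop codon.
Rps27l end of coding sequence: gctgttcatttagaagaaagcaacacTAA
Rps27l guide 1 site: tctaaatgaacagcctgcaaAGG
Rps27l guide 2 site: actaatgagctatgaagttcCGG

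The tagged gene itself did not pass the test. Rps27l had 133, 142 and 149 normalised CPM (counts scaled to library size and edgeR's TMM factors) in the Rps27l-FLAG clones of batches 1, 2 and 3 and 148, 149 and 149 in the WT clones. The clones of both lines lay within a narrow range, and the fitted log2 fold change was -0.071 ± 0.059 (SE, n = 3 against 3, adjusted p = 0.64, edgeR quasi-likelihood test). RPFs of Rps27 were 0 in all 15 libraries of the table, so its level is not given. RPF counts do not show the tag, since reads were aligned to the reference mouse transcriptome, which does not hold it. The first 15 and last 5 codons of each coding sequence were also left out of the counting.

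Some clones stood apart from their line before any comparison. Tet1, which encodes an enzyme that oxidises 5-methylcytosine, had 1.95, 2.10 and 422 CPM in the tagged clones (4a2, 4a3, 4b7 in order) and 3.08, 428 and 431 CPM in the WT clones (5a1, 5a2, 5a3). It was thus near 0 in both clones of batch 1 and in 4a3, and high in the remaining 3, so the log2 differences within batches 1, 2 and 3 were -0.64, -7.63 and -0.033, far wider in batch 2 than in the others. The IP libraries of the same Rps27l-FLAG clones gave 2.12, 9.67 and 324 CPM, the same order of clones. The fitted log2 fold change of Tet1, -1.61 ± 0.86 (adjusted p = 0.422, edgeR), did not pass the test. Y-linked genes also differed by clone: Eif2s3y, a Y-linked gene for a translation initiation factor subunit, had 945, 914 and 0 counts in the Rps27l-FLAG clones and 717, 13 and 30 in the WT clones. The part of these clone differences in the results below was not tested. The main results are therefore given by batch, and a part of them again without batch 2. Of the 144 calls described below, 61 stayed called without batch 2.

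Of 10085 transcripts tested, 144 (1.43%) passed an adjusted p of 0.05 in the fit with batch as a block: 37 (0.367%) were higher and 107 (1.06%) lower in Rps27l-FLAG. The higher transcripts rose by a median of 0.59 on the log2 scale and up to 1.36, and the lower ones had a median log2 fold change of -0.45 and reached -1.30, while the median over all transcripts tested was 0.0026. The endocytic genes Cubn and Dab2 and germline genes such as Dazl and Ddx4 were higher, and matrix proteins such as fibronectin and laminins, the cyclin Ccnd1 and the transcription factors Prdm1 and Mycn were lower. All 144 had the same sign in each of the 3 batches, as did 34.8% of all transcripts tested. The medians of the 107 lower transcripts were -0.36, -0.51 and -0.54 in batches 1, 2 and 3, and those of the 37 higher ones were 0.42, 0.57 and 0.68. These calls depended on the block: with the line as the only term no transcript passed in edgeR (0 called, 574 at an unadjusted p under 0.05, lowest adjusted p = 0.821) or in voom with limma (0 called, 585 at an unadjusted p under 0.05). Without batch 2 there were 92 calls, 61 of them among the 144, and without batch 3 there were 2, of which 1 was among the 144 (Slc28a1, a nucleoside transporter). The 144 kept a median of 94.6% of their log2 fold change without batch 2 and 95.2% without batch 3.

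For most calls the groups of 3 overlapped although each pair of clones differed in 1 direction. The 3 against 3 values did not overlap for 33 of the 144 transcripts, 12 higher and 21 lower, against 9.65% of all transcripts tested. The 3 Rps27-FLAG total libraries belong to neither group but share the fit that made the calls. Their values are therefore not independent of the calls. Among them, the batch 1 clone was the lowest of its line for 96 of the 107 lower transcripts (89.7%, against 40.7% of all tested) and the highest for 36 of the 37 higher ones (97.3%, against 39.8%). Its median difference from the other Rps27-FLAG clones was -0.46 for the lower and 0.56 for the higher transcripts on the log2 scale. The WT clone of batch 1 differed from the other WT clones by medians of -0.57 and 0.79. Batch 1 clones of every line therefore lay, for these transcripts, on the side where the Rps27l-FLAG line lay, and within batch 1 the Rps27l-FLAG clone lay further out. Tet1 had 2.43, 423 and 417 CPM in the Rps27-FLAG clones of batches 1, 2 and 3, so it was near 0 in the batch 1 clone of every line. In batch 1, batch and low Tet1 thus coincide, and the part of each in this pattern was not tested.

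**Figure D1:**
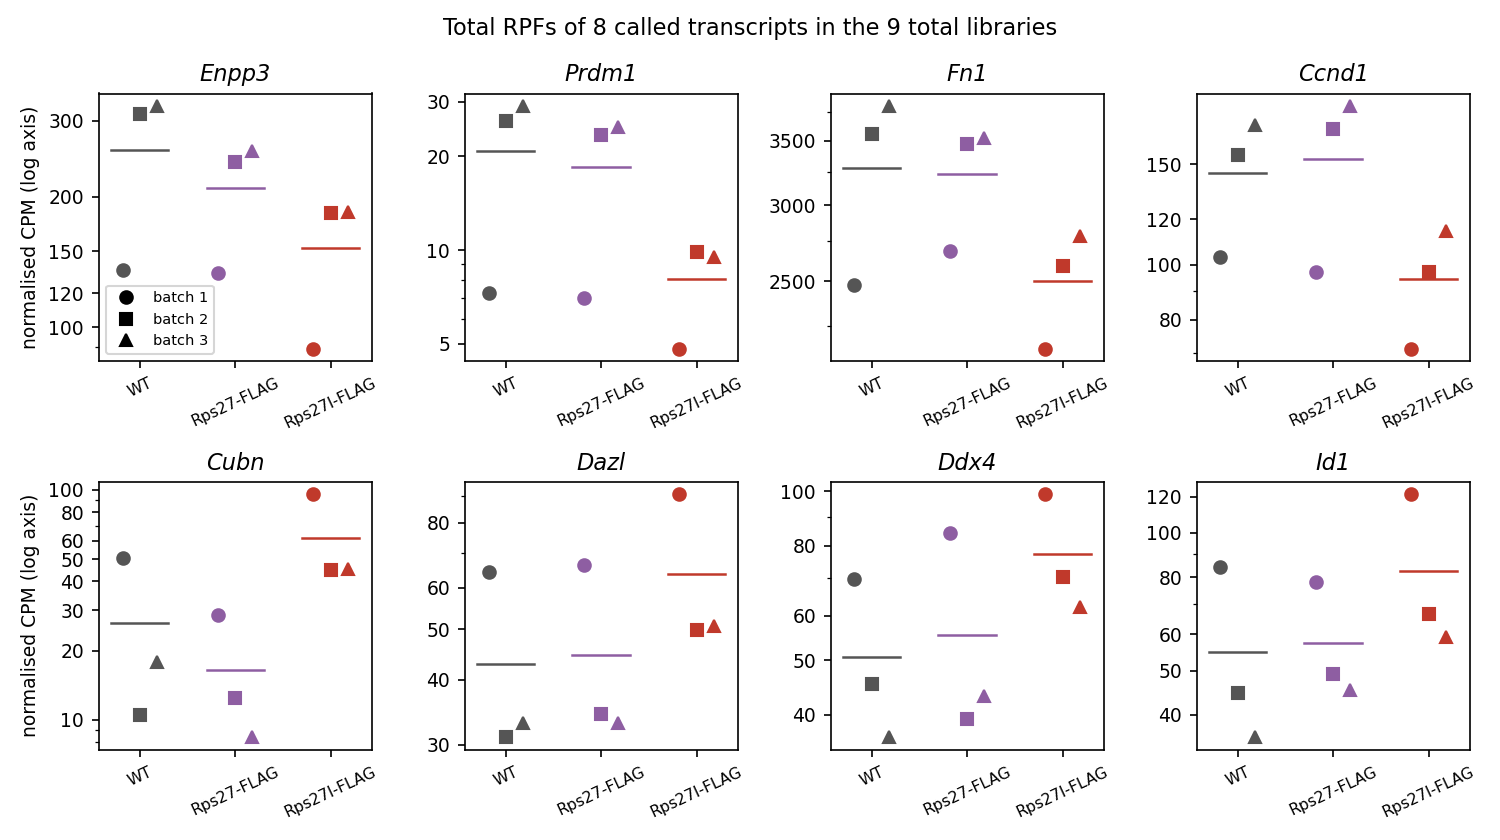
Normalised CPM on a log axis of 8 called transcripts in the 9 total libraries, by line, with a circle, square and triangle for batches 1, 2 and 3 and a bar at the arithmetic mean of 3 clones. Enpp3, Prdm1, Fn1 and Ccnd1 were lower and Cubn, Dazl, Ddx4 and Id1 higher in Rps27l-FLAG than in WT within each batch, and the circle stood apart in every line.

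The lower transcript with the smallest adjusted p was Enpp3, which encodes an ectonucleotidase of the cell surface (chr10:24772406-24836225, minus strand, 25 exons; chosen after its values were seen). Its RPFs were 89.2, 184 and 185 CPM in Rps27l-FLAG and 135, 310.2 and 325 CPM in WT for batches 1 to 3. Clone 5a1 fell inside the Rps27l-FLAG range, but each Rps27l-FLAG clone was below the WT clone of its batch, with log2 differences of -0.60, -0.75 and -0.81. The fitted change was -0.73 ± 0.070 (adjusted p = 0.00073, edgeR), and -0.72 without batch 2 (adjusted p = 0.000834). Prdm1, a transcriptional repressor needed for germ cell specification (chr10:44438293-44458687, minus strand; also chosen after its values were seen), gave 4.82, 9.87 and 9.48 CPM against 7.28, 26.0 and 29.1 CPM. This was the largest fall among the calls, -1.30 ± 0.17 (adjusted p = 0.00358), and it was -1.25 without batch 2 (adjusted p = 0.0135). In batch 1 all 3 lines were low in Prdm1, with 7.02 CPM in the Rps27-FLAG clone. Nrp2, a receptor for semaphorins and VEGF, followed the same order with 5.08, 8.51 and 9.48 CPM against 7.00, 25.5 and 24.1 CPM (log2 fold change -1.23 ± 0.18, adjusted p = 0.00539; -1.01, adjusted p = 0.0373, without batch 2).

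Matrix and basement membrane genes held the most lower calls of the lists counted. Of 121 members tested of the Reactome set for extracellular matrix organization, 1 rose and 9 fell (8.26% called, against 1.43% of all tested), while the median of all 121 was -0.036 and 50 were above 0. Fn1, which encodes fibronectin (chr1:71585524-71653175, minus strand), had 2128, 2594 and 2785 CPM in Rps27l-FLAG and 2479, 3559 and 3804 CPM in WT. Its groups overlapped through clone 5a1, yet it was lower in every batch (log2 fold change -0.38 ± 0.050, adjusted p = 0.00358; -0.34, adjusted p = 0.0311, without batch 2). Lamb1 and Lama5, the beta-1 and alpha-5 chains of laminin, did not overlap between groups. Lamb1 had 553, 626 and 587 CPM against 652, 788 and 825 CPM (log2 fold change -0.35 ± 0.052, adjusted p = 0.00539), and Lama5 had 692, 844 and 647 CPM against 906, 1024 and 969.9 CPM (log2 fold change -0.42 ± 0.062, adjusted p = 0.00539). Nid2, the nidogen that links laminin to collagen IV, had 1089, 1277 and 1272 CPM against 1317, 1579 and 1649 CPM, again without overlap (-0.32 ± 0.050, adjusted p = 0.00769). Col18a1, a basement membrane collagen, fell by 0.46 on the log2 scale (SE 0.065, adjusted p = 0.00461). The other 4 that fell were A2m (a protease inhibitor), Timp1 (an inhibitor of metalloproteinases), Dst (a cytoskeletal linker) and P4hb (protein disulfide isomerase, a subunit of prolyl 4-hydroxylase), with log2 fold changes of -1.06, -0.60, -0.46 and -0.25. The member that rose was Col4a2, a chain of collagen IV. Without batch 2, A2m, Col18a1, Lama5, Fn1, Lamb1 and Nid2 stayed called, while Timp1, Dst, P4hb and Col4a2 did not.

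The 12 largest falls without overlap also held genes of other kinds. Dnah8, an axonemal dynein heavy chain, had 86.4, 144 and 126 CPM against 149.8, 197 and 216 CPM (log2 fold change -0.67 ± 0.090, adjusted p = 0.00358). Gpc3, a glypican of the cell surface, had 119, 159 and 148 CPM against 169, 187 and 223 CPM (log2 fold change -0.44 ± 0.071, adjusted p = 0.00891). Both were lower in all 3 batches, and the Rps27-FLAG total libraries gave 120.1, 235 and 222 CPM for Dnah8 and 151, 192 and 208 CPM for Gpc3. Tfpi, an inhibitor of the tissue factor pathway of coagulation, differed from these: it was 43.9, 59.8 and 37.9 CPM in Rps27l-FLAG, 74.6, 70.7 and 63.5 CPM in WT and 39.0, 47.5 and 31.3 CPM in Rps27-FLAG. Both tagged lines were compared with the same WT clones, and Tfpi was the 1 transcript called in Rps27-FLAG against WT (log2 fold change -0.84, adjusted p = 0.0200, beside -0.58, adjusted p = 0.0165, in Rps27l-FLAG). The remaining falls of this set were A2m, Ddx58 (the RNA sensor RIG-I), Spn (a sialoglycoprotein), Castor1 (an arginine sensor of mTORC1), Tnks1bp1 (a tankyrase-binding protein), Ero1l (an oxidase of disulfide formation) and Slc20a1 (a phosphate transporter). Their log2 fold changes were -1.06, -0.67, -0.66, -0.44, -0.42, -0.41 and -0.35, in that order. Of the falls named here, Ddx58, Spn, Castor1 and Tnks1bp1 were not called without batch 2, and the others stayed called.

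**Figure D2:**
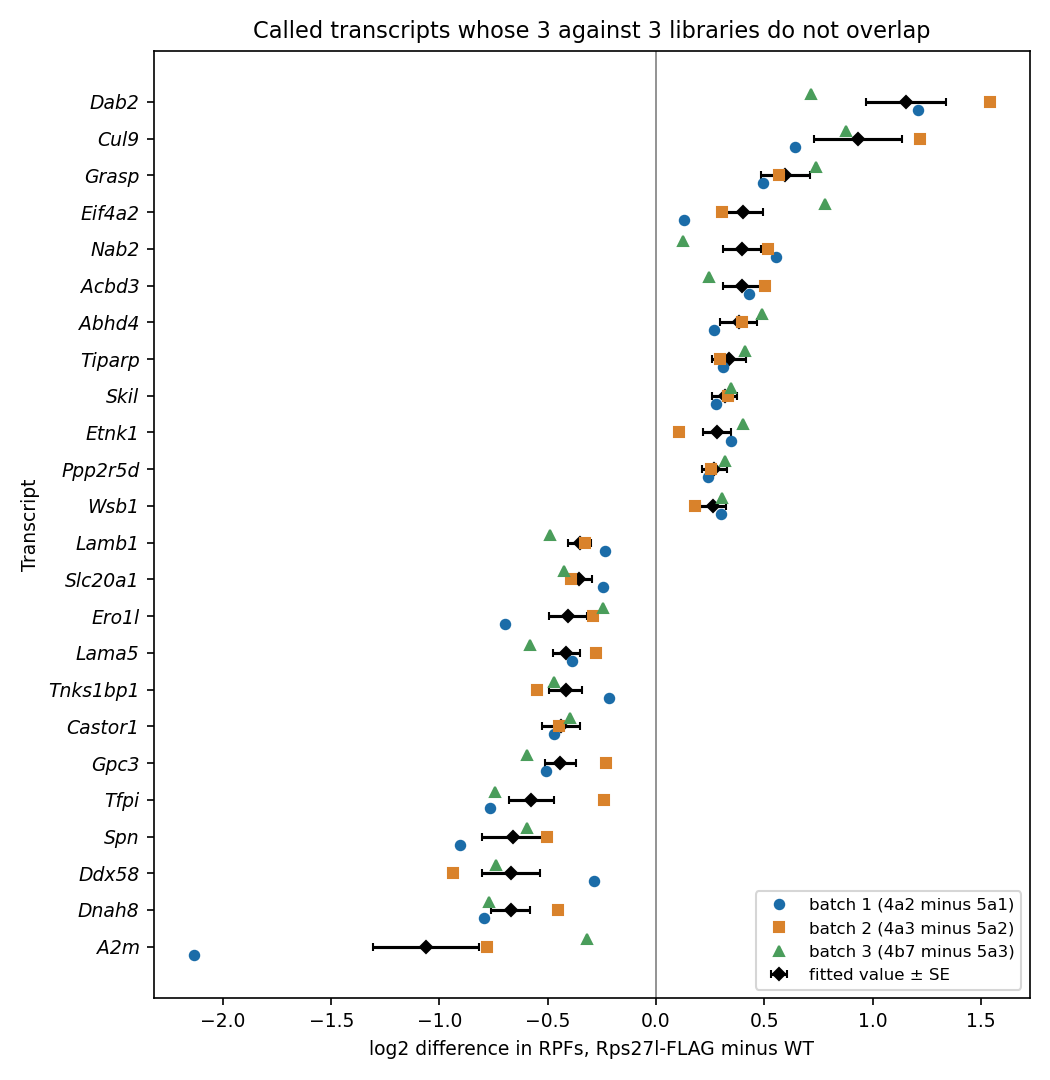
Log2 difference in RPFs, Rps27l-FLAG minus WT, of the 12 largest rises and 12 largest falls whose 3 against 3 values did not overlap, with 1 coloured point per batch and a black diamond with bars for the fitted value ± SE. All points of a transcript lay on 1 side of 0, and A2m spread most, from -2.13 in batch 1 to -0.32 in batch 3.

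Among higher transcripts, genes of the primitive endoderm, the extraembryonic lineage that lines the blastocyst cavity, held the 2 largest rises. Of 19 markers listed, 9 were tested; 3 rose (Cubn, Dab2 and Col4a2) and 1 fell (Lamb1), which is 44.4% called against 1.43% of all tested. The median of the 9 was 0.46, with medians of 0.076, 0.87 and 0.044 in batches 1, 2 and 3, so that the list as a whole was high in batch 2 alone, the batch in which Tet1 differed most. Cubn, which encodes the endocytic receptor cubilin (chr2:13276338-13491813, minus strand, 67 exons), had 95.8, 45.0 and 45.4 CPM in Rps27l-FLAG and 50.5, 10.5 and 17.9 CPM in WT. Clone 5a1 exceeded 4a3 and 4b7, and the differences by batch were 0.92, 2.09 and 1.34 on the log2 scale (fitted 1.36 ± 0.18, adjusted p = 0.00358; 1.09, adjusted p = 0.00101, without batch 2). Dab2, an adaptor for endocytosis (chr15:6386598-6440705), had 28.2, 14.1 and 12.8 CPM against 12.2, 4.78 and 7.77 CPM, with every Rps27l-FLAG clone above every WT clone (log2 fold change 1.15 ± 0.19, adjusted p = 0.00903; 1.02, adjusted p = 0.0143, without batch 2). Col4a2 had 67.8, 45.5 and 49.8 CPM against 60.9, 22.2 and 30.0 CPM (log2 fold change 0.61 ± 0.13, adjusted p = 0.0436), and was 0.41 without batch 2 (adjusted p = 0.181). The IP libraries of the 3 Rps27l-FLAG clones gave 74.1, 27.9 and 29.9 CPM for Cubn and 24.8, 12.6 and 10.7 CPM for Dab2.

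The defining regulators of this lineage were near the lower limit of counting. Gata4 had 39, 29 and 13 counts in the Rps27l-FLAG libraries and 13, 7 and 8 in the WT libraries. Gata6 had 43, 13 and 18 against 21, 6 and 12 counts, and Sox17 had 25, 10 and 7 against 10, 5 and 1 counts. Each Rps27l-FLAG library exceeded the WT library of its batch for these 3 transcription factors, none of which was abundant enough to be tested. The summed level of all 18 markers in the table ranged from 2141 to 2471 CPM in Rps27l-FLAG and from 2284 to 2586 CPM in WT. It was lower in the Rps27l-FLAG library of every batch, opposite to Cubn and Dab2, while 1 marker was at 0 in each of these 6 libraries. Lamc1, Lamb1, Lama1 and Sparc make up most of this sum. Lamc1 alone had 6711, 7437 and 7407 counts in Rps27l-FLAG and 6719, 8283 and 8232 in WT. The sum therefore says little about the markers at low counts. The part of cells of this lineage in the rises of Cubn and Dab2 was not tested.

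Germline genes that DNA methylation keeps silent in most somatic cells formed the other group of higher transcripts. Of 47 such genes listed, 30 were tested, of which 6 rose and 1 fell (23.3% called, against 1.43% of all tested), with a median of 0.19 and 19 members above 0. Dazl, an RNA-binding protein of germ cells (chr17:50279397-50293636), had 90.9, 49.7 and 50.7 CPM in Rps27l-FLAG and 64.4, 31.0 and 33.0 CPM in WT, and the batch differences were 0.50, 0.68 and 0.62 (fitted 0.59 ± 0.083, adjusted p = 0.00461; 0.55, adjusted p = 0.0143, without batch 2). Ddx4, the germ cell helicase Vasa, had 98.8, 70.4 and 62.3 CPM against 69.8, 45.4 and 36.4 CPM (0.63 ± 0.11, adjusted p = 0.0113). In both, the batch 1 clone of WT stood above the other WT clones, and its value lay within or above the Rps27l-FLAG range of batches 2 and 3. Piwil2, which binds piRNAs, had 78.6, 54.9 and 46.0 CPM against 58.6, 33.4 and 26.1 CPM (adjusted p = 0.00891). Stra8, which marks entry into meiosis, had 107, 70.3 and 51.8 CPM against 87.0, 30.7 and 25.5 CPM (log2 fold change 0.80 ± 0.14, adjusted p = 0.0154). Brdt, a testis bromodomain protein, had 17.7, 11.0 and 5.69 CPM against 12.2, 3.46 and 2.09 CPM, and Taf7l, a germ cell subunit of TFIID, had 28.9, 14.7 and 8.69 CPM against 17.1, 7.31 and 7.02 CPM; both passed (adjusted p = 0.0434 and 0.0496). Hormad1, which acts on meiotic chromosome axes, went the other way, with 64.2, 93.5 and 98.2 CPM against 76.7, 146 and 126 CPM (log2 fold change -0.43 ± 0.079, adjusted p = 0.0176). Without batch 2, where Tet1 differed between the clones, 3 members stayed called, namely Dazl, Ddx4 and Piwil2, and the log2 fold changes of Stra8 and Brdt were 0.59 (adjusted p = 0.0639) and 0.76 (adjusted p = 0.156).

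Promoters of the called germline genes were read for the E-box CACGTG, a sequence bound by several helix-loop-helix factors and the same on both strands. RefSeq windows of 250 bases before to 50 after the start held 6 of the 7 genes, and 4 of the 6 contained the motif: Brdt, Taf7l and Ddx4, which rose, and Hormad1, which fell. It was present in 48.0% of the 25 tested germline genes with a window, in 42.1% of the 19 that were not called, and in 11.2% of 8027 tested genes with a window. Dazl and Stra8, which rose, lacked it. The 30 bases around the motif are shown for these 4 because they place the motif, which is in capitals (GRCm38.p6; Brdt chr5:107331104-107331133, plus strand; Ddx4 chr13:112652322-112652351, minus; Taf7l chrX:134476522-134476551, minus; Hormad1 chr3:95559608-95559637, plus).
Brdt: cgcaggcacagtCACGTGgcagaccctggc
Ddx4: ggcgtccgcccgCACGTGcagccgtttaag
Taf7l: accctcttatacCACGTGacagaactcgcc
Hormad1: caaagggtgcgcCACGTGccagtgacagtt

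Signalling genes moved in both directions. Of 19 tested targets of TGF-beta, Nodal and BMP, Id1 and Skil rose and Gdf3 fell (15.8% called, against 1.43% of all tested), and 7 lay above 0. Id1, a helix-loop-helix inhibitor induced by BMP, had 122, 66.5 and 59.1 CPM against 84.2, 44.7 and 35.7 CPM, higher in each batch (log2 fold change 0.60 ± 0.087, adjusted p = 0.00539; 0.61, adjusted p = 0.012, without batch 2). Skil, a Smad co-repressor, had 209, 196 and 184 CPM against 173, 156 and 145 CPM without overlap (0.32 ± 0.057, adjusted p = 0.0165). Gdf3, a ligand of the TGF-beta family, had 197, 249 and 293 CPM against 243, 335 and 337 CPM (-0.31 ± 0.056, adjusted p = 0.0165). Without batch 2, neither Skil nor Gdf3 stayed called (adjusted p = 0.0588 and 0.112, edgeR). Of 24 tested genes of ERK feedback and the immediate early response, the phosphatase gene Dusp6 and Phlda1 rose and Mycn fell (12.5% called), and 19 lay above 0. Mycn, a growth regulator, had 103, 195 and 170.1 CPM against 148, 266 and 259 CPM (log2 fold change -0.53 ± 0.070, adjusted p = 0.00358), lower in every batch by a similar amount (-0.53, -0.45 and -0.60). Dusp6 had 185, 118 and 108 CPM against 157, 81.3 and 81.9 CPM (0.39 ± 0.081, adjusted p = 0.0373) and was 0.31 without batch 2 (adjusted p = 0.159), and Phlda1 was 0.69 with all batches and 0.55 without batch 2 (adjusted p = 0.117).

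Of 45 tested p53 target genes, Abhd4 and the ephrin receptor Epha2 rose and Ccnd1 fell (6.67% called, against 1.43% of all tested), and 28 were above 0. Epha2 leaned on 4b7, with 0.20 left of 0.30 without it. Without batch 2, Epha2 stayed called and Abhd4 did not (adjusted p = 0.0346 and 0.144, edgeR). Ccnd1, or cyclin D1, had 71.1, 97.2 and 115 CPM against 103, 156 and 176 CPM (log2 fold change -0.61 ± 0.073, adjusted p = 0.00358; -0.58, adjusted p = 0.00316, without batch 2), while the p53 targets Cdkn1a and Mdm2 had log2 fold changes of 0.089 and 0.066 with adjusted p of 0.838 and 0.84. Of 441 tested genes of the Reactome cell cycle set, 5 fell (Ccnd1, Spc24, Ankle2, Tuba4a and Pcnt) and none rose, a share of 1.13% beside 1.43% of all tested. Of 125 tested solute carriers and related genes, 4 fell (3.20%, against 1.06% of all tested): Slc16a3, a lactate transporter, Slc20a1, the arginine transporter Slc7a3, and AU018091. Sets for axon guidance (Nrp2, Lamb1, Epha2 and Col4a2), lipid metabolism (Slc27a2, P4hb, Etnk1 and Cubn), chromatin modification (Ccnd1, Kmt2b and Msl1) and transcription (Ccnt2, Nr0b1 and Skil) had 4 of 192, 4 of 319, 3 of 172 and 3 of 131 tested members called, shares of 2.08%, 1.25%, 1.74% and 2.29% that lie near the background. The 76 cytosolic ribosomal protein transcripts tested, the 77 of mitochondrial ribosomes and the 85 ribosome biogenesis factors had no call, with medians of -0.038, -0.011 and -0.039. Of 66 translation factors only Eif4a2, an RNA helicase of initiation that leaned on the WT clone 5a3, was called.

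**Figure D3:**
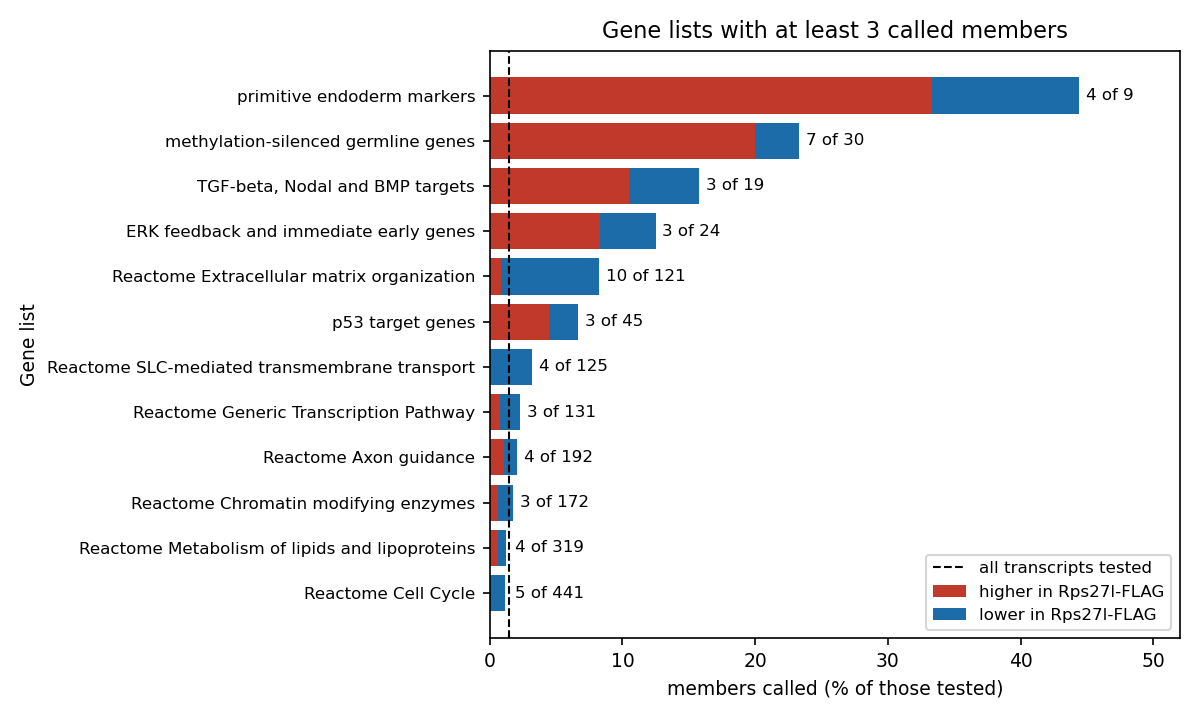
Share of tested members called higher (red) or lower (blue) in Rps27l-FLAG for the 12 gene lists with at least 3 called members, with the number called and tested beside each bar and a dashed line at 1.43% for all transcripts tested. Primitive endoderm (4 of 9) and germline genes (7 of 30) were mostly higher, matrix genes (10 of 121) mostly lower, and several broad sets lay at the line.

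Pluripotency genes, the defining markers of the cell type, had counts in all 6 libraries. Tet1, also on the core list, was near 0 in 4a2, 4a3 and 5a1, as given above. Of 28 tested naive pluripotency genes, 1 fell (Nr0b1, 3.57% called, against 1.43% of all tested), with a median of -0.032 and 13 above 0. Of 11 core factors, 1 fell (the RNA-binding protein Lin28a, 9.09% called), with a median of -0.17 and 3 above 0. Pou5f1 had 434, 413 and 457 CPM in Rps27l-FLAG against 463, 428 and 465 CPM in WT, and Nanog had 667, 619 and 689 CPM against 628, 611 and 669 CPM, with log2 fold changes of -0.057 and 0.049. No marker of mesoderm or neuroectoderm was called among the 5 tested of each, and 1 of 6 trophectoderm markers fell (Fgfr2, with 3.77, 11.2 and 6.32 CPM against 6.16, 21.5 and 18.4 CPM), while 4 of the 6 lay above 0 without passing, among them Esx1 (0.98) and Eomes (0.49), with a median of 0.25. The trophectoderm factor Cdx2 had 1 to 4 counts in each of the 6 libraries. Of 7 fibroblast markers tested, Fn1 and Timp1 fell, while the other 5, among them Vim (0.18) and Col6a2 (0.35), lay above 0 without passing, and the median of the 7 was 0.24.

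The other higher transcripts without overlap between groups were small in level or in change. Cul9, a cullin that binds p53, had 8.33, 10.6 and 6.64 CPM against 5.32, 4.52 and 3.59 CPM (log2 fold change 0.93 ± 0.20, adjusted p = 0.0441) and 8.81, 6.68 and 5.10 CPM in the Rps27-FLAG clones. Tiparp, a poly(ADP-ribose) polymerase, had 123, 117 and 117 CPM against 99.6, 95.2 and 87.8 CPM (0.34 ± 0.078, adjusted p = 0.0496). The 12 rises of this kind also held Dab2, Skil, Abhd4 (a lipase), Grasp (a scaffold protein), Eif4a2, Nab2 (a co-repressor of Egr proteins), Acbd3 (a Golgi protein), Etnk1 (an ethanolamine kinase), Ppp2r5d (a PP2A subunit) and Wsb1 (a SOCS-box protein). Grasp rose by 0.60 on the log2 scale, and the remaining ones apart from Dab2 and Cul9 by 0.26 to 0.40. The value of 0.40 is that of Eif4a2, which went to 0.26 without 5a3 (adjusted p = 0.341). Among these 12 rises, only Dab2 and Etnk1 stayed called without batch 2.

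Each call was then checked for a shift of a single clone by leaving out each of the 6 clones in turn. Direction is hardly tested by this, since all 144 had the same sign in each of the 3 batches. All 144 kept their direction in all 6 fits, and 15 passed the threshold in all 6: Cubn, Id1 and Dazl, which were higher, and Prdm1, Enpp3, Ifitm1, Fxyd6, Dnah8, Ccnd1, Dusp27, Nexmif, Mycn, Col18a1, Diaph1 and Fn1, which were lower. These 15 also passed without batch 1 and without batch 2, but none of them passed without batch 3, where the adjusted p was 0.0784 for Enpp3, 0.121 for Ccnd1 and 0.168 for Prdm1. Of the rest, 5 passed in none of the 6 fits, and the median number of fits passed was 3. With the clone that carried most of it left out, a transcript kept a median of 82.8% of its log2 fold change. The clone whose removal lowered the change most was 4a3 for 47 transcripts and 5a3 for 42, then 5a2 for 21, 4b7 for 14, and 4a2 and 5a1 for 10 each.

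For 11 transcripts, 3 higher and 8 lower, the log2 fold change fell by over 1.5 times without 1 clone. Clone 4a3 carried 5 of them, 4b7 3, 5a3 2 and 5a1 1. A2m lost the largest part of its change: it had 16.7, 29.2 and 46.6 CPM in Rps27l-FLAG and 73.3, 50.2 and 58.1 CPM in WT, and its log2 fold change went from -1.06 to -0.58 without 5a1 (adjusted p = 0.0446). Peg3, a paternally expressed imprinted gene, had 26.7, 32.1 and 59.0 CPM against 29.9, 75.3 and 89.2 CPM, lowest in both batch 1 clones and in 4a3, and went from -0.69 to -0.42 without 4a3. Bcam, an adhesion molecule that binds laminin, and Timp1 also leaned on 4a3, with -0.28 and -0.37 left of -0.46 and -0.60. Klhl13, an adaptor of an E3 ligase, had 81.5, 206 and 91.7 CPM against 134, 239 and 220.0 CPM, so that 4a3 lay inside the WT range while 4a2 and 4b7 lay below it. Its change fell to -0.44 without 4b7. Trh, which encodes thyrotropin-releasing hormone, had 203, 250.0 and 245 CPM against 232, 398 and 509 CPM and leaned on 5a3 (-0.42 without it, adjusted p = 0.146). For all 8 transcripts carried by 4a3 or 4b7, the IP library of that clone differed from the other Rps27l-FLAG IP libraries in the same direction as its total library. Total and IP RPFs of a clone came from the same ribosome pellet, so the IP library is not a separate culture. The share of all tested transcripts with such a match was not counted. For Peg3 the IP values were 22.3, 24.5 and 49.3 CPM, and for Klhl13 79.6, 195 and 83.6 CPM.

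**Figure D4:**
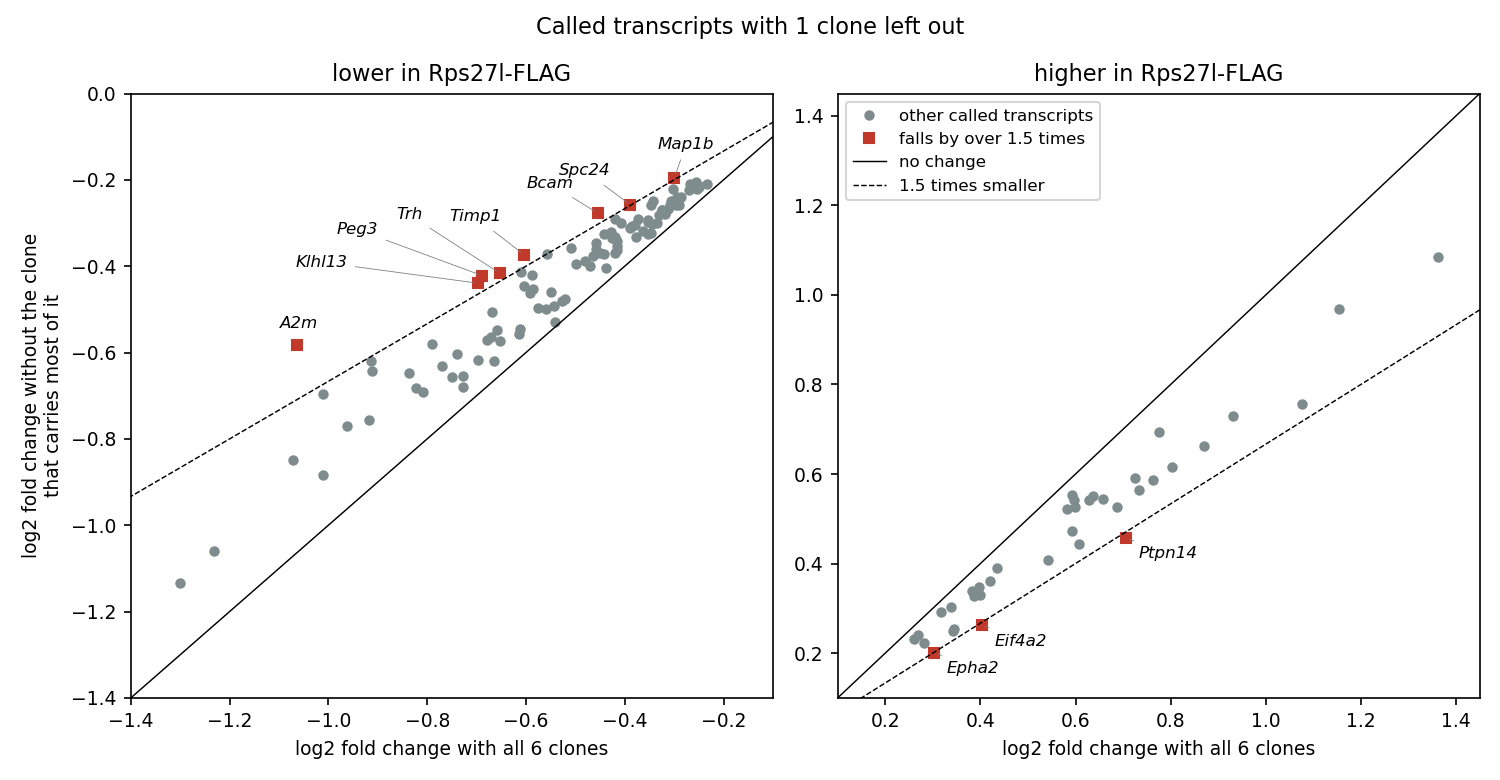
Log2 fold change of the 144 called transcripts with all 6 clones (x axis) and without the clone that carries most of it (y axis), lower transcripts on the left and higher on the right; red squares mark the 11 that fell by over 1.5 times. All points kept their sign, and A2m lay furthest from the line of no change.

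No autosome stood apart as a whole, nor did the X chromosome. The Y chromosome had 1 transcript tested and is left out here, and Y-linked genes differed by clone as given above. Over the autosomes and the X chromosome, the median log2 difference within a batch lay between -0.048 and 0.046. The calls were spread over all of these chromosomes, from 1 on chromosome 18 to 14 on chromosome 2, and the X chromosome had the highest share, 11 of 346 tested (3.18%).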

How the data were processed

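Per the labels, the authors trimmed RPF reads (cutadapt 2.4), removed duplicate molecules by UMI (UMI-tools 1.0.1) and aligned them with Bowtie2 2.3.4.3 for the mouse build GRCm38. The deposited values are raw counts per transcript of unique alignments, by ribosomal A site over the coding sequence without its first 15 and last 5 codons. Reads from near-identical paralogs are lost this way. From these counts, 10085 transcripts were kept that exceeded 2 CPM in 14 or more of the 15 libraries, with mitochondrially encoded ones left out. They were fitted in edgeR 4.0.16 (R 4.3.3) with TMM factors, line and replicate number as terms over the 9 total libraries, and tested by the quasi-likelihood F test with Benjamini-Hochberg adjustment at 0.05. The study's own model has no replicate term. It was added here because the study's sample annotation gives the label prefix as a sequencing batch. The residuals of same-numbered Rps27l-FLAG and WT libraries correlated by 0.55, -0.040 and 0.44, so not in batch 2. SE is the log2 fold change divided by the root of F. P-values measure the spread left among the 9 total libraries after line and replicate number are fitted, with 4 residual degrees of freedom. They do not measure the whole spread between clones of a line. Within-batch differences and CPM in the text are TMM-scaled.

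Names and coordinates are from GENCODE M21 on GRCm38 (21723 of 21727 transcripts matched), and promoters from RefSeq. Named genes were Rps27l, the 12 largest rises and falls among calls without overlap between groups, called members of lists with at least 3 calls, and the largest single-clone shifts. Enpp3, Prdm1, Tet1, Eif2s3y, the calls passing in all fits without 1 clone, and the uncalled or untested markers named beside their lists were chosen after their values were seen. Reactome sets served as lists for counting only. Gene lists and members were chosen with earlier results of these data known. In simulated counts with 200 transcripts changed at each size, the fit recovered 62.5% at a log2 change of 0.5 and 94.5% at 1, with 25 false calls among 339 (7.37%, above the nominal rate). The simulated counts were drawn from the fitted model and held no shifts of single clones. These shares therefore need not hold for clones that differ as those here do. Alternatives were no block, voom with limma (3.58.1), DESeq2 (1.42.0), other filters, a length trend, and leaving out each clone. Leaving out each batch was added after the data were seen.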

Additional observations from a re-analysis of the deposited data

Results flagged for a closer look

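For 10 of the named transcripts, Rps27l-FLAG differed from the other tagged line, Rps27-FLAG, by a test of that difference in the same fit (edgeR quasi-likelihood, Benjamini-Hochberg adjustment over 10085 transcripts). Those higher in Rps27l-FLAG than in Rps27-FLAG were Dab2 (log2 difference 1.39 ± 0.19 SE, adjusted p = 0.00465), Eif4a2 (0.45, adjusted p = 0.0342), Tiparp (0.54, adjusted p = 0.00723), Skil (0.28, adjusted p = 0.0387) and Etnk1 (0.31, adjusted p = 0.0413). Those lower were Dnah8 (-0.67, adjusted p = 0.00465), Spn (-0.68, adjusted p = 0.0413), Gpc3 (-0.36, adjusted p = 0.0307), Castor1 (-0.44, adjusted p = 0.0368) and Slc20a1 (-0.30, adjusted p = 0.0282). Of the 144 calls against WT, 60 were also called in the same direction against Rps27-FLAG, where 137 of all 10085 tested were called. Both comparisons use the same Rps27l-FLAG clones and the same fit, so they are not independent. The named transcripts were also picked from the values of these Rps27l-FLAG clones.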

How the results depend on the processing

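The 144 calls rest on the replicate block. With no replicate block 0 transcripts were called in edgeR (574 at an unadjusted p under 0.05) and 0 in voom with limma (585 at an unadjusted p under 0.05), and all 63 named log2 fold changes kept their sign but lost the call. With the block, voom with limma called 113 and DESeq2 146. The 6 Rps27l-FLAG and WT libraries alone gave 34 calls, and no filter on low counts gave 458. Leaving out 1 clone gave 23 to 269 calls: 269 without 4a2, 181 without 4a3, 76 without 4b7, 141 without 5a1, 29 without 5a2 and 23 without 5a3. Leaving out a whole batch gave 135, 92 and 2 calls without batch 1, 2 and 3. All 144 transcripts kept their sign under every alternative that tested them. As they already had the same sign in all 3 batches, this says little about their stability. Beyond the smaller number of libraries, the cause of these changes was not tested. With 3 clones a line, changes of 0.5 on the log2 scale were recovered only in part in simulated counts without clone shifts.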
